A study of Mus musculus with 72 samples.

Results

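Gene expression was compared between tumours of mice given bintrafusp alfa alone and tumours of mice given an isotype control antibody. Bintrafusp alfa (BA, labelled M7824) is an antibody against PD-L1 fused to the ligand-binding domain of a TGF-β receptor, so that a single molecule binds both PD-L1 and TGF-β. The tumours grew from 4T1, an established mouse mammary carcinoma line, in female BALB/c mice aged 6 to 12 weeks; no allele or transgene is named. The cells were placed in the thigh muscle on day -6, the 9 control mice received 400 µg of isotype antibody and the 9 BA mice 492 µg of BA on day 0, and all were killed on day 6. The tissue is labelled as orthotopic tumour, although the design places the mammary line in the thigh. Groups were chosen by the treatment code at the end of each column name. They hold 18 of the 36 mice and 36 of the 72 libraries of the series, because the RNA of a tumour was measured on 2 targeted amplicon panels. The other mice received radiation with the isotype antibody (RT, 9 mice) or radiation with BA (BA+RT, 9 mice). They share the fit and its estimate of spread, and are compared with each other only to ask whether the difference with BA recurred after radiation.

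TGF-β is secreted in a latent complex, and once released it signals through paired receptors to Smad proteins, which turn genes of matrix production on and restrain T cells and natural killer cells. PD-L1, encoded by Cd274, engages the receptor PD-1 on T cells and dampens their killing. Perforin and granzymes are the granule proteins with which cytotoxic lymphocytes kill, while fibroblasts, pericytes and proteases shape the matrix around tumour cells.

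Of 1224 genes measured, 1038 had enough counts to be tested. In the control and BA groups a library held 959532 to 1956764 counts on panel 1 and 314621 to 841046 on panel 2, and replicate libraries differed beyond sampling noise in every pair (lowest chi-square per degree of freedom, 6.32). Values are CPM (each count scaled to a common library total), scaled within each panel, so they compare a gene between mice and not one gene with another. Epcam, an epithelial surface marker of the tumour cells, lay between 7810 and 14437 CPM in every tumour. Control mouse 8 stood apart from the other control mice in genes of interferon-γ response and antigen presentation, and values without it are given for the genes and lists it moved most. It lay on the control side of the midpoint between the group means for 53.9% of the genes called, against 70.7% to 95.7% in the other control mice.

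The amplicons behind the largest differences and the drug's targets are printed here to show which stretch of each transcript was counted. Each lies in a coding exon of GRCm38, is given in the sense direction from 5′ to 3′ in lower case throughout, and was read from GENCODE transcripts.
Prf1 (perforin), chr10:61303348-61303439, plus strand: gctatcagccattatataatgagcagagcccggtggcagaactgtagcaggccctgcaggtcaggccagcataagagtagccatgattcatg
Gzmb (granzyme B), chr14:56260218-56260311, minus strand: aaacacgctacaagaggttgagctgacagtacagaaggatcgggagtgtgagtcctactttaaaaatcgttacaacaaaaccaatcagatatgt
Ctsg (cathepsin G), chr14:56099983-56100073, minus strand: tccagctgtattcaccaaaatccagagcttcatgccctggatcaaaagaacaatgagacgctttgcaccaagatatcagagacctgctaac
Mmp9 (gelatinase B), chr2:164951146-164951240, plus strand: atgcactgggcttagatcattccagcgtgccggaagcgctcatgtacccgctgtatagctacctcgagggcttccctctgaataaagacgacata
Cspg4 (the NG2 proteoglycan), chr9:56888385-56888484, plus strand: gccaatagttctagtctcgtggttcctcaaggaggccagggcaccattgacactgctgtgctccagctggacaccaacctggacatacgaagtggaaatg
Tgfb2 (TGF-β2), chr1:186625500-186625594, minus strand: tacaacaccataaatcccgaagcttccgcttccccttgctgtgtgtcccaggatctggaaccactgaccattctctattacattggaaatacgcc
Cd274 (PD-L1), chr19:29380321-29380418, plus strand: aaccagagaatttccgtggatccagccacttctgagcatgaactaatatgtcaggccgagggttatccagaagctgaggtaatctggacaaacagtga

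With BA, 280 of the 1038 genes differed from control at an adjusted p below 0.05 (27%), 130 of them higher (12.5%) and 150 lower (14.5%). The median size of the called differences was 1.38-fold for higher and 1.36-fold for lower genes, and 32 higher and 20 lower genes passed a 2-fold difference (a log2 fold change of 1). The 12 genes called higher with the smallest p were led by killing and granule genes (Prf1, Prtn3, Ctsg), the receptors Fpr2, Itgb2, Il2ra and Tnfrsf18, and the transcription factor genes Foxp3 and Zbtb32. The lower genes with the smallest p were led by matrix, stromal and surface genes (Mmp9, Cd40, Cspg4, Plau, Fap, Timp1, Cd200) and Tgfb2. Every BA value lay beyond every control value for 29 genes (2.79% of those tested), of which 11 were higher and 18 lower. Scaling to the 9 reference genes of the panels, in place of the bulk of the genes, moved the split to 99 higher and 183 lower, and shifted the median over all genes from 0.0019 to -0.05 on the log2 scale. Directions below are relative to the bulk of each panel unless stated. Gene lists below share some members, so their counts are not independent of each other.

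**Figure D1:**
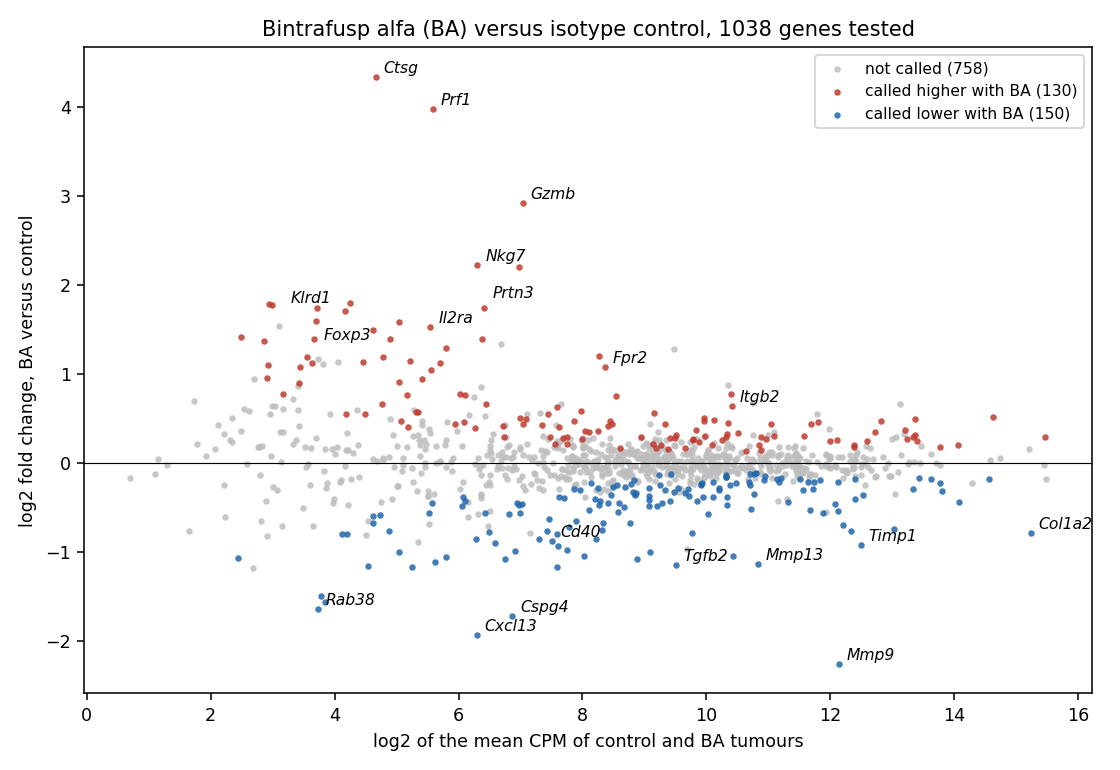
Each point is 1 of 1038 tested genes, with the log2 mean CPM of both groups on the horizontal axis and the log2 fold change of BA against control on the vertical axis; red marks the 130 genes called higher, blue the 150 called lower and grey the rest. Ctsg, Prf1 and Gzmb stand highest, and Mmp9 lies lowest at a log2 fold change of -2.26.

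The targets of the drug differed among themselves in transcript level. Cd274, which encodes PD-L1, ranged 110.2 to 912 CPM (median 155) in control and 116 to 506 CPM (median 238) in BA tumours, and the groups overlapped throughout (log2 fold change 0.19, SE 0.33, edgeR adjusted p = 0.714). The highest value of all belonged to control mouse 8, and without that mouse Cd274 was called higher by 0.82 (adjusted p = 0.0091). Its relative Pdcd1lg2, the gene of the second PD-1 ligand PD-L2, rose from a control range of 21.6 to 166 CPM (median 27.9) to 52.4 to 196 CPM (median 108) (log2 fold change 1.40, SE 0.37, edgeR adjusted p = 0.00439). Pdcd1, which encodes PD-1 itself, was low in both groups at 1.90 to 12.1 CPM (median 4.69) and 4.99 to 15.2 CPM (median 10.6) and was called higher by 0.95 (edgeR adjusted p = 0.0323). That call ended when any of 8 single mice was left out, with adjusted p then between 0.0516 and 0.0665.

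Among the TGF-β ligands Tgfb2 alone differed between the groups by the test. It measured 714 to 1719.9 CPM (median 919.6) in control and 356 to 575 CPM (median 434) in BA tumours, so all 9 BA values lay below all 9 control values (log2 fold change -1.15, SE 0.17, edgeR adjusted p = 4.16e-06). Both panels carried Tgfb2 and gave log2 fold changes of -1.17 on panel 1 and -1.15 on panel 2. Tgfb1, the ligand most studied in immune suppression, had medians of 2787 and 2618 CPM (log2 fold change -0.04, SE 0.07, edgeR adjusted p = 0.755). Tgfb3 had medians of 861 and 776 CPM (log2 fold change 0.02, SE 0.11, edgeR adjusted p = 0.917). The 2 receptor genes were called higher by small amounts, Tgfbr1 by 0.20 (adjusted p = 0.0225) and Tgfbr2 by 0.18 (adjusted p = 0.0141) in edgeR's test. Neither receptor call held with reference gene scaling (adjusted p = 0.311 and 0.498), and that of Tgfbr1 also ended without control mouse 7 (adjusted p = 0.0546).

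Latency and activation genes moved in both directions. Ltbp1, a protein that tethers latent TGF-β to matrix, rose from 5751 to 11451 CPM (median 9239) to 10755 to 14599 CPM (median 11808) (log2 fold change 0.50, SE 0.12, edgeR adjusted p = 0.00176). Lrrc32, which encodes the latent TGF-β carrier GARP of regulatory T cells and platelets, fell by 0.56 (edgeR adjusted p = 0.00575). Itgb6, the β chain of an integrin that releases active TGF-β, fell from 71.7 to 373 CPM (median 122) to 35.3 to 92.5 CPM (median 71.9) (log2 fold change -1.08, SE 0.27, edgeR adjusted p = 0.00267). In all, of 16 tested ligand, receptor and latency genes 4 were called higher and 5 lower, beside 12.5% and 14.5% over all genes. Their median log2 fold change was -0.01. With reference gene scaling 1 was called higher and 6 lower, beside 99 and 183 of all 1038 genes.

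Smads and their partners differed by small amounts. Of 13 tested genes 5 were called higher and 0 lower, with a median of 0.13, beside 12.5% and 14.5% over all genes. With reference gene scaling 2 were called higher, beside 99 of all 1038 genes. Id2, an inhibitor of helix-loop-helix factors, rose from 2437 to 3603 CPM (median 2703) to 3009 to 4364 CPM (median 3778) (log2 fold change 0.44, SE 0.08, edgeR adjusted p = 0.00013). The acetyltransferase coactivators Ep300 and Crebbp rose by 0.30 and 0.25 (edgeR adjusted p = 0.000122 and 0.000516), and the corepressor Tgif1 by 0.24 (adjusted p = 0.026). The calls of Crebbp and Tgif1 ended with reference gene scaling (adjusted p = 0.0621 and 0.172), and on panel 1 Tgif1 stood at 0.08 (adjusted p = 0.485). The Tgif1 call also ended without control mouse 6 or 7 or BA mouse 11 or 12 (adjusted p = 0.0546 to 0.0648).

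Among TGF-β target genes more were called lower than higher. Of 19 tested target genes 9 were called lower and 3 higher, beside 14.5% and 12.5% over all genes. Their median log2 fold change was -0.36. Thbs2, a matricellular thrombospondin, fell from 7429 to 15889 CPM (median 10035) to 5361 to 7808 CPM (median 5898) (log2 fold change -0.74, SE 0.13, edgeR adjusted p = 3.59e-05). Its paralogue Thbs1 fell by 0.54 and Acta2, the smooth muscle actin of myofibroblasts and pericytes, by 1.08 (edgeR adjusted p = 0.000368 and 7.01e-05). Vegfa, the vascular growth factor, fell by 0.39 (edgeR adjusted p = 0.00737). Myc, a gene that TGF-β represses in many epithelial cells, was 1 of the 3 that rose, by 0.34 (edgeR adjusted p = 8.73e-05). The largest log2 fold change of the list was 0.76, in a gene not described here. Lox, which crosslinks collagen, and the small proteoglycan gene Dcn did not pass the test, with log2 fold changes of -0.56 and 0.38. Lox was called lower with reference gene scaling, with the control and BA mice alone, in DESeq2 and without any 1 of 6 mice (adjusted p = 0.0297 to 0.0469), and Dcn higher without control mouse 6 (adjusted p = 0.0345).

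Genes of cytotoxic granules and natural killer cells had the highest median log2 fold change of the lists described. Of 15 tested members 9 were called higher and 1 lower, with a median log2 fold change of 1.21, against 12.5% called higher among all genes. Prf1, the pore-forming perforin, lay between 0.759 and 14.04 CPM (median 3.73) in control and between 27.9 and 169 CPM (median 93.5) in BA tumours. No BA mouse overlapped a control mouse, and the control libraries held only 1 to 22 Prf1 counts each (log2 fold change 3.98, SE 0.51, edgeR adjusted p = 7.03e-07). The granule protease gene Gzmb (granzyme B) lay between 9.87 and 109 CPM (median 20.3) in control and 98.7 and 399.8 CPM (median 229) in BA tumours (log2 fold change 2.92, SE 0.49, edgeR adjusted p = 3.59e-05). The highest Gzmb control was mouse 8, which exceeded only the lowest BA mouse. Nkg7, a granule membrane protein, had medians of 15.9 and 117 CPM, with 1 control value above the lowest BA value (log2 fold change 2.22, SE 0.39, edgeR adjusted p = 5.56e-05).

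Receptors of these cells moved less uniformly. Klrd1, the CD94 chain of killer cell lectin receptors, rose from 0.616 to 15.8 CPM (median 8.64) to 18.1 to 48.1 CPM (median 25.9) with no overlap (log2 fold change 1.71, SE 0.31, edgeR adjusted p = 9.92e-05). Fasl, the death ligand, rose by 1.74 on panel 1 and by 1.19 on panel 2, the widest gap between panels among the genes both carried. Among defining natural killer cell markers Ncr1 (the receptor NKp46) rose by 1.74 (edgeR adjusted p = 0.000665) while Eomes, a transcription factor of natural killer and memory T cells, fell by 0.38 (adjusted p = 0.00909). Klrk1, the receptor NKG2D, did not pass the test at 0.46 (edgeR adjusted p = 0.334), and was called higher by 0.98 without control mouse 8 (adjusted p = 0.00761). Ctsw, a cathepsin of cytotoxic cells, stood at -0.32 (edgeR adjusted p = 0.0888), and was called lower without control mouse 7 or BA mouse 11 or 15 (adjusted p = 0.0285, 0.045 and 0.0401). Without control mouse 8 the list had 11 members called higher. In these bulk tumours more cells of a type and more RNA per cell cannot be told apart.

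**Figure D2:**
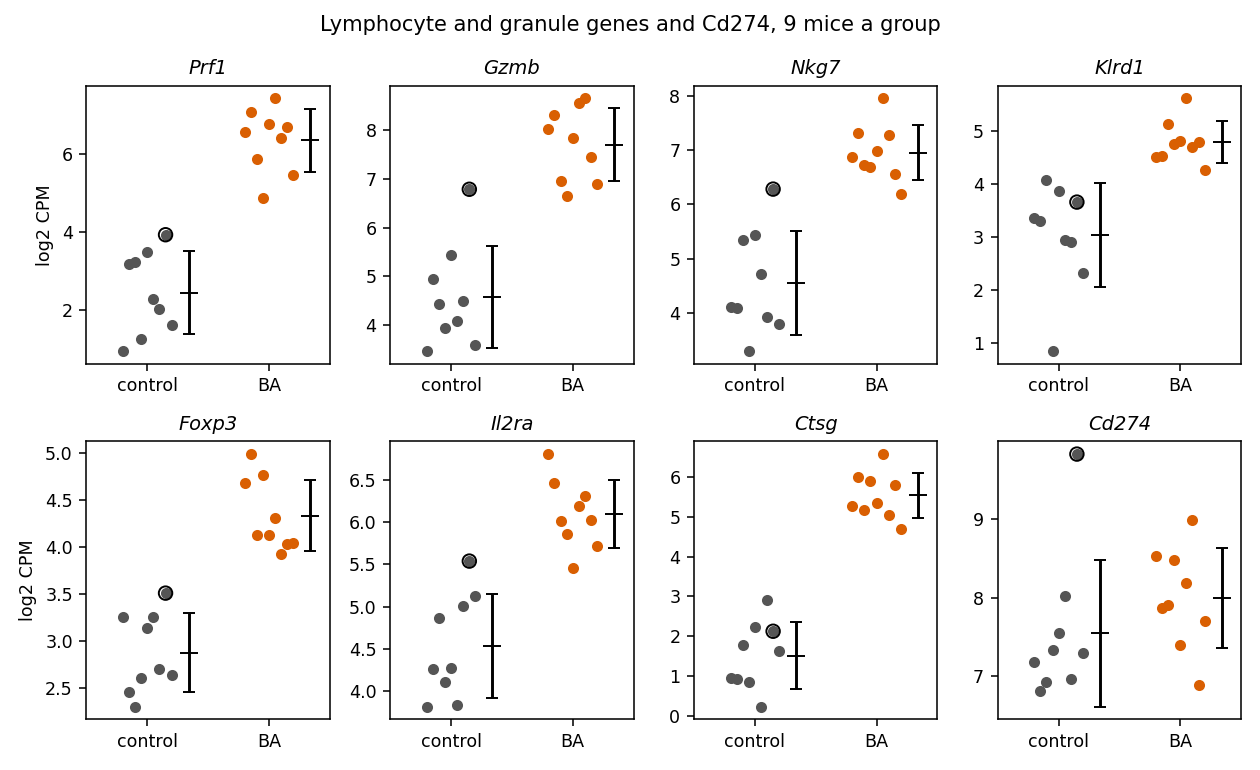
Dots are single mice on a log2 CPM axis (prior count 2), control in grey and BA in orange, with the mean and SD beside each group; the open ring marks control mouse 8. BA and control do not overlap for Prf1, Klrd1, Foxp3 and Ctsg, and for Cd274 control mouse 8 is the highest of the 18 mice.

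T cell genes were called mostly higher, from low levels. Of 24 tested T cell genes 11 were called higher and 2 lower, with a median of 0.88, beside 12.5% and 14.5% over all genes. Without control mouse 8 the counts were 16 higher and 2 lower of 25, beside 168 and 181 of all 1041 genes. Among the defining chains Cd3g rose by 1.58 (edgeR adjusted p = 0.00729). Cd3d and Cd3e stood at 1.12 and 1.14 without passing the test (adjusted p = 0.0788 and 0.0614), Cd4 at 0.86 and Cd8a at 0.61 (adjusted p = 0.119 and 0.513). The summed CPM of these 5 chains ranged from 21.7 to 122.7 with a median of 29.8 in control tumours, and from 49.9 to 231 with a median of 93.8 in BA tumours. Cd247, the signalling ζ chain, and Cd8b1, the CD8 β chain, had log2 fold changes of 1.17 and 1.54 (adjusted p = 0.0525 and 0.0602). Both were called without control mouse 8 (adjusted p = 0.0407 and 0.0198) or control mouse 3 (adjusted p = 0.0233 and 0.0425), and without some other single mice. With all mice both were also called in limma (adjusted p = 0.0147 and 0.0441). Cd247 was called too in DESeq2 and with the control and BA mice fitted alone (adjusted p = 0.0485 and 0.0325).

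Genes of activated T cells were among those called. Icos, a costimulatory receptor induced on activation, rose from 5.76 to 24.9 CPM (median 10.7) to 18.95 to 59.9 CPM (median 33.9) (log2 fold change 1.49, SE 0.34, edgeR adjusted p = 0.000992). Ccr7, the receptor that guides naive T cells and dendritic cells to lymph nodes, rose by 0.94 (edgeR adjusted p = 0.000851). The exceptions were Itm2a and Egr2. Itm2a, a transmembrane protein of T cells and other lineages, fell from 1403 to 2661 CPM (median 1675) to 639.8 to 1114 CPM (median 945) without overlap (log2 fold change -1.05, SE 0.14, edgeR adjusted p = 1.65e-06). Egr2, a transcription factor linked to T cell anergy and also made by macrophages, fell by 0.57 (edgeR adjusted p = 0.000524).

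Regulatory T cell genes were also called mostly higher. Of 13 tested members 7 were called higher and 2 lower, with a median of 0.77, beside 12.5% and 14.5% over all genes. Foxp3, the lineage factor, lay between 3.76 and 10.2 CPM (median 5.33) in control and 14.1 and 30.5 CPM (median 16.3) in BA tumours, with no overlap (log2 fold change 1.60, SE 0.24, edgeR adjusted p = 8.17e-06). Il2ra, the high-affinity IL-2 receptor chain CD25, rose from 12.9 to 45.3 CPM (median 18.2) to 42.8 to 111 CPM (median 63.8) (log2 fold change 1.53, SE 0.25, edgeR adjusted p = 3.21e-05), and Il2rb, the shared β chain of the IL-2 and IL-15 receptors, by 1.29 (edgeR adjusted p = 0.000125). Ctla4, the inhibitory receptor, had medians of 7.04 and 26.9 CPM (log2 fold change 1.80, SE 0.41, edgeR adjusted p = 0.00119). Il10, an anti-inflammatory cytokine made by several cell types, went the other way, from 25.7 to 82.5 CPM (median 53.9) to 5.37 to 53.7 CPM (median 18.98) (log2 fold change -1.17, SE 0.30, edgeR adjusted p = 0.00398), and the panels gave -1.20 and -1.17.

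Costimulatory and inhibitory genes were called in both directions. Of 15 tested costimulatory receptors and ligands 6 were called higher and 1 lower (median 0.56), beside 12.5% and 14.5% over all genes. The TNF family receptors Tnfrsf18 (GITR) and Tnfrsf4 (OX40) rose by 1.12 and 0.77 (edgeR adjusted p = 3.21e-05 and 4.73e-05). The one called lower was Cd40, a receptor of antigen-presenting and some tumour cells, which fell from 185 to 275 CPM (median 248) to 105 to 151 CPM (median 128) with no overlap (log2 fold change -0.88, SE 0.10, edgeR adjusted p = 3.85e-08). Of 21 inhibitory receptors and ligands 5 were called higher and 2 lower, beside the same shares over all genes. The lower ones were Cd200, a ligand that restrains myeloid cells, at -0.80 with no overlap, and Cd276, the B7-H3 ligand, at -0.46 (adjusted p = 8.17e-06 and 0.000103). Zbtb32, a zinc finger repressor of lymphocyte activation, was outside both lists and rose by 1.39 (edgeR adjusted p = 2.06e-05).

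Neutrophil genes were called mostly higher. Of 15 tested members 7 were called higher and 1 lower, with a median of 0.36, beside 12.5% and 14.5% over all genes. The lower one was Mmp9, described with the proteases below. Ctsg, the granule protease cathepsin G, had 0 to 13 counts a library in control and 41 to 111 in BA tumours, that is 0 to 6.30 CPM (median 1.90) against 24.8 to 93.7 CPM (median 39.6). Those groups did not overlap (log2 fold change 4.34, SE 0.57, edgeR adjusted p = 8.31e-07). Prtn3, the granule proteinase 3, rose from 20.5 to 72.9 CPM (median 34.5) to 71.7 to 194 CPM (median 125) (log2 fold change 1.74, SE 0.22, edgeR adjusted p = 7.16e-07), with 1 control value above the lowest BA value. The formyl peptide receptor gene Fpr2 rose with no overlap from 144 to 306 CPM (median 195) to 352 to 590.3 CPM (median 433) (log2 fold change 1.08, SE 0.15, edgeR adjusted p = 1.14e-06).

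Adhesion genes of leukocytes followed. Itgb2, the shared β chain of leukocyte integrins, rose by 0.64 and its partner Itgam by 0.56 (edgeR adjusted p = 1.26e-06 and 3.59e-05). Selplg, the selectin ligand PSGL-1, rose by 0.59 with no overlap (edgeR adjusted p = 0.000122). The defining neutrophil markers did not pass the test: Csf3r stood at -0.07, Cxcr2 at -0.40 and S100a8, a calcium-binding protein abundant in neutrophils, at -0.43 (adjusted p = 0.724, 0.0794 and 0.334). BA mouse 13 held the highest S100a8 value, 5919 CPM, and without it S100a8 was called lower by 0.85 (adjusted p = 0.0201). Mmp8, the neutrophil collagenase, stood at 0.52 (edgeR adjusted p = 0.0559), and was called in DESeq2, in limma, with the control and BA mice alone and without any 1 of 5 mice (adjusted p = 0.0256 to 0.0488).

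Macrophage and monocyte genes were also called mostly higher. Of 18 tested members 8 were called higher and 2 lower, with a median of 0.22, beside 12.5% and 14.5% over all genes. Arg1, an arginase of suppressive myeloid cells, rose from 4800.4 to 7722 CPM (median 5756) to 6507 to 10344 CPM (median 8555) (log2 fold change 0.47, SE 0.10, edgeR adjusted p = 0.000629). The scavenger receptor gene Msr1 rose by 0.44 (edgeR adjusted p = 0.00037), the growth factor gene Csf1 by 0.32 (edgeR adjusted p = 0.00292) and the monocyte chemokine receptor gene Ccr2 by 0.51 (edgeR adjusted p = 0.00854). Among defining markers Csf1r, the receptor for that growth factor, rose by 0.29 while Adgre1, the F4/80 antigen, fell by 0.43 (edgeR adjusted p = 0.0122 and 0.00919), and Cd68 stood at 0.05. Acp5, an acid phosphatase of osteoclasts and macrophages, fell by 0.58 (edgeR adjusted p = 0.00037). Cd163, a scavenger receptor of tissue macrophages, ranged 37.6 to 644 CPM (median 108) in control and 22.5 to 182 CPM (median 120.0) in BA tumours (log2 fold change -0.79, SE 0.44, edgeR adjusted p = 0.194).

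Of 8 mast cell, basophil and eosinophil genes 0 were called higher and 1 lower, the histamine-forming enzyme Hdc at -0.67 (edgeR adjusted p = 0.0198). That call ended without control mouse 6 (adjusted p = 0.0591). The mast cell markers Kit and Cpa3 stood at 0.33 and 0.18 (adjusted p = 0.167 and 0.77), and the tryptase Tpsab1, which has a close paralogue that could share reads, at 0.55, called higher only without control mouse 9 (adjusted p = 0.0344). Of 10 dendritic cell genes 3 were called higher and 0 lower, against 12.5% and 14.5% over all genes. Ccr7, described with the T cell genes, was among those called. None of the 4 defining dendritic cell markers looked for (Itgax, Xcr1, Clec9a and Flt3) was on the panels. Irf4, a factor of activated lymphocytes and some dendritic cells, rose by 0.90 (edgeR adjusted p = 0.00272).

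Calls in the interferon-γ axis and antigen presentation moved with 1 control mouse, which was singled out because it stood apart in these same genes. Of 21 axis genes 3 were called higher and 0 lower with all mice (median 0.09), beside 12.5% and 14.5% over all genes. Without control mouse 8, 11 were called higher, with a median of 0.61. Class II genes went from 2 of 7 to 7 of 7 called higher, and their median from 0.45 to 0.83. With scaling by library totals alone and all mice kept, 4 of 7 were called higher. Class I genes went from 1 to 5 of 14, and type I interferon genes from 0 to 3 of 16. Over all genes the number called higher itself went from 130 of 1038 to 168 of 1041 without that mouse. The number called in either direction went from 280 to 349.

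The members called with all mice were mostly receptors and signal carriers. Il12rb2, the inducible chain of the IL-12 receptor, rose from 3.81 to 14.04 CPM (median 5.60) to 8.14 to 21.1 CPM (median 16.4) (log2 fold change 1.19, SE 0.23, edgeR adjusted p = 0.000132). Stat4, which relays IL-12 signals, rose by 1.08 (edgeR adjusted p = 0.00958) and Ifngr1, an interferon-γ receptor chain, by 0.20 (edgeR adjusted p = 0.0213). The Ifngr1 call ended with the control and BA mice fitted alone (adjusted p = 0.0513) and without BA mouse 11 or 14 (adjusted p = 0.063 and 0.0533). Ciita, the activator of class II genes, had a control range of 56.2 to 688 CPM (median 90.6), of which mouse 8 held the highest, and a BA range of 80.2 to 363 CPM (median 196) (log2 fold change 0.27, SE 0.40, edgeR adjusted p = 0.654). Without mouse 8 Ciita was called higher by 1.06 (adjusted p = 0.00756).

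Among antigen presentation genes Ifi30, a thiol reductase that prepares antigens, rose by 0.45 (edgeR adjusted p = 0.000178) and H2-DMa, a class II peptide loading chain, by 0.44 (edgeR adjusted p = 0.0319). The H2-DMa call ended with the control and BA mice fitted alone (adjusted p = 0.0774) and without any 1 of control mice 1, 3, 6 and 7 and BA mice 14 and 15 (adjusted p = 0.0516 to 0.0891). Cd74, the invariant chain, and H2-Ab1, a class II β chain, stood at 0.66 and 0.67 (adjusted p = 0.0536 and 0.0795). Without mouse 8 they were called at 0.89 and 0.97 (adjusted p = 0.00555 and 0.00538). With all mice Cd74 was also called in DESeq2, in limma and with library totals alone (adjusted p = 0.0364, 0.0238 and 0.0458). H2-Ab1 was called with all mice in limma (adjusted p = 0.0234). Leaving out BA mouse 17 also brought both calls (adjusted p = 0.0277 and 0.0483), and leaving out BA mouse 12 that of Cd74 (adjusted p = 0.0497). Calr, the class I chaperone calreticulin, rose by 0.58 (edgeR adjusted p = 0.00292). Psmb9, an immunoproteasome subunit, stood at 0.32 with all mice and at 0.65 without mouse 8 (adjusted p = 0.319 and 0.0033). The interferon-induced Ifit3 stood at -0.25 (edgeR adjusted p = 0.429).

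Chemokines rarely differed by the test. Of 22 tested chemokine genes 0 were called higher and 2 lower, beside 12.5% and 14.5% over all genes. Their median was -0.04, and without control mouse 8 the counts were 2 and 2. Cxcl12, a stromal chemokine that holds leukocytes and stem cells, fell from 97.3 to 505 CPM (median 249.5) to 51.3 to 206 CPM (median 109.7) (log2 fold change -1.17, SE 0.39, edgeR adjusted p = 0.0243), and the call ended without control mouse 3 or 6 (adjusted p = 0.0613 and 0.0567). Cxcl13, the B cell attractant, spread over 15.2 to 535 CPM (median 114) in control and 5.47 to 72.6 CPM (median 30.9) in BA tumours (log2 fold change -1.94, SE 0.67, edgeR adjusted p = 0.029). Without control mouse 3 its log2 fold change was -1.17 (adjusted p = 0.178), and the call also ended in limma (adjusted p = 0.0839) and without BA mouse 14, 16 or 17 (adjusted p = 0.0511 to 0.0538). Of 10 chemokine receptors 2 rose and 1 fell, beside the same shares over all genes. The one that fell was Cxcr3, a receptor for interferon-induced chemokines, at -0.85 (edgeR adjusted p = 0.000851). With reference gene scaling 2 receptors rose and 3 fell, beside 99 and 183 of all 1038 genes.

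Il1a, an inflammatory cytokine of epithelial and myeloid cells, fell from 236 to 587 CPM (median 313) to 122 to 227 CPM (median 163) with no overlap (log2 fold change -1.05, SE 0.17, edgeR adjusted p = 2.86e-05), and Il1rap, the accessory chain of its receptor, by 0.28 (edgeR adjusted p = 0.00153). Ptgs2, the inducible cyclooxygenase, fell by 0.48 (edgeR adjusted p = 0.00145), while Pycard, an inflammasome adaptor, rose by 0.42 (edgeR adjusted p = 0.00144). Ptgs2 and Pycard were the 2 genes called among 20 of innate sensing and inflammatory signalling, beside 27% called over all genes.

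Matrix proteases and their inhibitors were called mostly lower. Of 14 tested proteases 7 were called lower and 1 higher, with a median of -0.36, against 14.5% called lower among all genes. Mmp9, a gelatinase of myeloid and tumour cells, lay between 4673 and 8906 CPM (median 7554) in control and 1116 and 2092 CPM (median 1459.6) in BA tumours, so that the highest BA mouse was below the lowest control mouse (log2 fold change -2.26, SE 0.17, edgeR adjusted p = 1.73e-12). Mmp13, a collagenase, fell from 1588 to 3691 CPM (median 2532) to 530.0 to 1748 CPM (median 1057) (log2 fold change -1.14, SE 0.24, edgeR adjusted p = 0.000558). Ctsk, the collagen-degrading cathepsin K, fell by 1.002 with no overlap (edgeR adjusted p = 0.000303). Plau, the urokinase that activates plasminogen, had medians of 5924 and 3334 CPM (log2 fold change -0.69, SE 0.09, edgeR adjusted p = 4.2e-07). Of 9 protease inhibitors 5 were called lower and 1 higher, with a median of -0.54. Timp1, an inhibitor of matrix metalloproteinases, measured 5425 to 10986 CPM (median 7202) in control and 3419 to 4879 CPM (median 3902) in BA tumours without overlap (log2 fold change -0.92, SE 0.14, edgeR adjusted p = 1.16e-05).

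Genes of fibroblasts and pericytes were lower in nearly the whole list. Of 8 tested markers 7 were called lower and 0 higher, with a median of -0.73, beside 14.5% and 12.5% over all genes. Cspg4, the proteoglycan NG2 of pericytes that some tumour cells also make, lay between 139 and 273 CPM (median 179) in control and 32.01 and 70.1 CPM (median 57.0) in BA tumours (log2 fold change -1.72, SE 0.21, edgeR adjusted p = 2.91e-07). Fap, fibroblast activation protein, lay between 263 and 573 CPM (median 396) and 156 and 249 CPM (median 214) (log2 fold change -0.85, SE 0.12, edgeR adjusted p = 3.76e-06). Neither gene's groups overlapped. Pdgfrb, a growth factor receptor of pericytes, fell by 0.48 (edgeR adjusted p = 0.000665). Col1a2, a chain of type I collagen and among the most abundant amplicons of its panel, had medians of 42267 and 28210.2 CPM, again without overlap (log2 fold change -0.79, SE 0.15, edgeR adjusted p = 0.000122). Grem1, a BMP antagonist of fibroblasts, fell by 0.67 (edgeR adjusted p = 0.0107), but by 0.44 without control mouse 9 (adjusted p = 0.0525). Fn1, fibronectin, rose by 0.29 on panel 1 and by 0.43 on panel 2, and was called on both (edgeR adjusted p = 0.0409 and 0.00282). The panel 1 call ended with no filter on low counts (adjusted p = 0.0528) and without any 1 of 9 mice (adjusted p = 0.0514 to 0.0892).

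**Figure D3:**
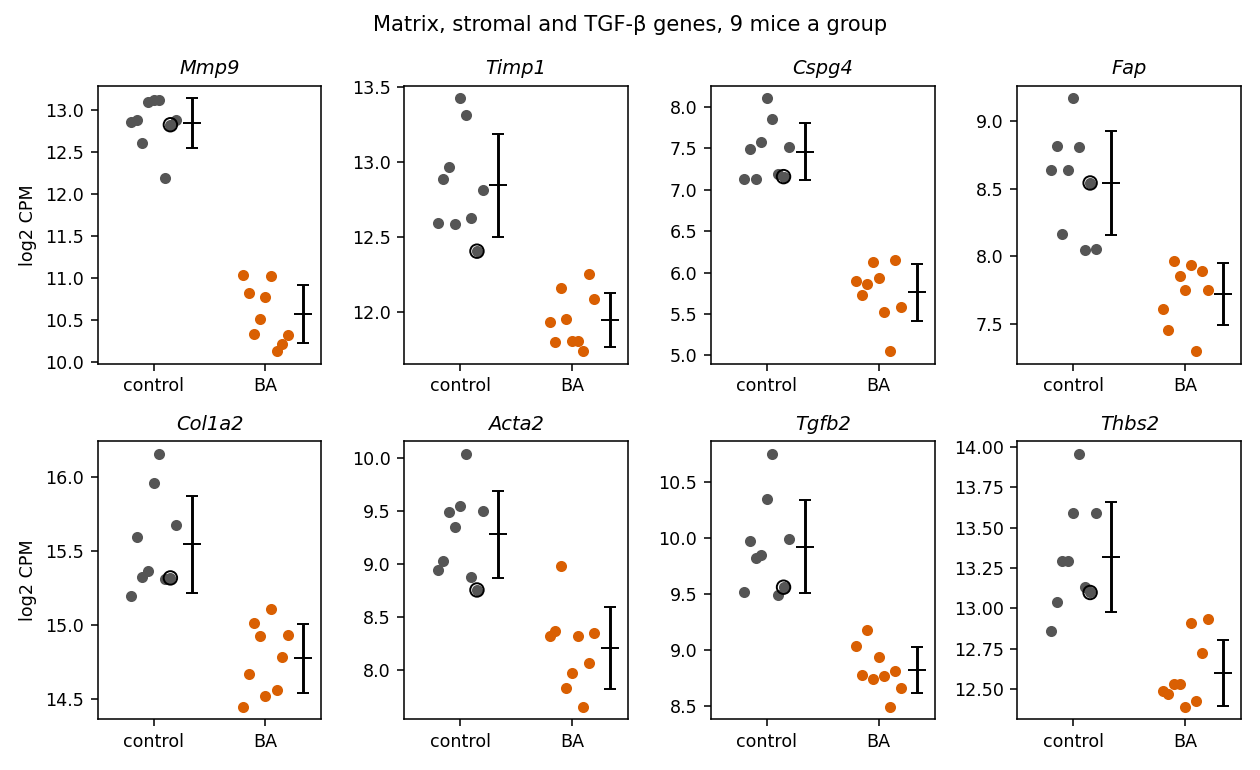
Dots are single mice on a log2 CPM axis (prior count 2), control in grey and BA in orange, with the mean and SD beside each group and a ring on control mouse 8. BA values lie below all control values for Mmp9, Timp1, Cspg4, Fap, Col1a2 and Tgfb2, while Acta2 and Thbs2 overlap.

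Endothelial genes were called only lower, and integrins in both directions. Of 12 endothelial and angiogenesis genes 5 were called lower and 0 higher, with a median of -0.14, beside 14.5% and 12.5% over all genes. The lowest of them was Thbs1, also counted among the TGF-β target genes above. Kdr, the main VEGF receptor of endothelium, fell by 0.39 and Cd34, a marker of endothelium and progenitors, by 0.41 (edgeR adjusted p = 0.0148 and 0.00973). Of 22 integrin and adhesion genes 8 were called higher, among them Itgb2 and Itgam above, and 8 lower, beside the same shares over all genes. Itga2, a chain of a collagen receptor, fell from 4649 to 5514 CPM (median 4924) to 3286 to 4307 CPM (median 3531) with no overlap (log2 fold change -0.47, SE 0.08, edgeR adjusted p = 6.21e-05). The vitronectin receptor chain Itgb3 fell by 0.53 on panel 1 (edgeR adjusted p = 0.00463), and stood at -0.28 on panel 2 (adjusted p = 0.0858).

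Epithelial and tumour cell markers were lower by small amounts. Of 8 tested markers 6 were called lower and 0 higher, with a median of -0.29, beside 14.5% and 12.5% over all genes. With library totals alone or reference gene scaling 5 were called lower. Of 6 defining epithelial markers looked for, only Epcam and Muc1 were on the panels. Epcam measured 9359 to 14437 CPM (median 11224) in control and 7810.2 to 10699 CPM (median 9411) in BA tumours (log2 fold change -0.30, SE 0.11, edgeR adjusted p = 0.0384), and its call ended when any of 5 single mice was left out. Muc1, a membrane mucin, fell from 24.3 to 58.1 CPM (median 46.7) to 10.9 to 33.4 CPM (median 20.9) (log2 fold change -1.004, SE 0.23, edgeR adjusted p = 0.00119), and Msln, the surface antigen mesothelin, by 0.48 (edgeR adjusted p = 0.00634). Birc5, the mitotic survival protein survivin, was counted in this list and called at -0.29 (edgeR adjusted p = 0.0409). The Birc5 call ended with the control and BA mice fitted alone (adjusted p = 0.0969), under 2 other scalings and without any 1 of 9 mice. Rab38, a small GTPase of vesicle transport, and Ncald, a calcium sensor, were outside the lists and fell by 1.64 and 1.12 with no overlap (edgeR adjusted p = 6.45e-06 and 8.31e-07).

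Homologous recombination genes were called only lower, by small amounts. Of 28 homologous recombination and Fanconi genes 10 were called lower and 0 higher, with a median of -0.11 and 25 negative log2 fold changes, against 14.5% called lower over all genes. Brca2, a tumour suppressor of homologous recombination, fell from 841 to 1117 CPM (median 928) to 659.9 to 821 CPM (median 732) with no overlap (log2 fold change -0.37, SE 0.06, edgeR adjusted p = 2.06e-05). Rbbp8, which starts end resection, fell by 0.45 (edgeR adjusted p = 0.000127). Of 9 proliferation genes 3 were called lower and 2 higher, beside 14.5% and 12.5% over all genes. Mki67, the Ki-67 proliferation antigen, fell by 0.35 (edgeR adjusted p = 0.00135). Pttg1, the mitotic protein securin, was outside the lists and fell by 0.53 (edgeR adjusted p = 2.17e-06).

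Other repair classes stand beside a share of 27% called over all genes. Base excision repair had 2 of 22 lower, among them the DNA glycosylase Neil3 at -0.56 (edgeR adjusted p = 9e-05). Nucleotide excision repair had 4 higher and 2 lower of 26, the latter including the replicative ligase Lig1 at -0.38 (edgeR adjusted p = 9.73e-05). With reference gene scaling the nucleotide excision counts became 0 higher and 5 lower. That scaling gave 99 higher and 183 lower over all 1038 genes. Rev1, a translesion polymerase, rose by 0.27 (edgeR adjusted p = 8.17e-06), and Abcc4, a transporter of cyclic nucleotides and drugs, by 0.47 (edgeR adjusted p = 3e-05). Of 47 proteasome genes, a list chosen after seeing the panel's gene names, 4 were called lower and 1 higher, with a median of -0.05. Without control mouse 8 the counts were 11 lower and 3 higher, and with RLE scaling, another way to set library factors, 8 lower and 1 higher. Psmd13, a subunit of the proteasome's regulatory lid, fell by 0.22 (edgeR adjusted p = 0.00356). The called cytotoxic and T cell genes were mostly higher in the same libraries in which the called recombination genes were lower, and the part of cell mixture in either was not tested.

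**Figure D4:**
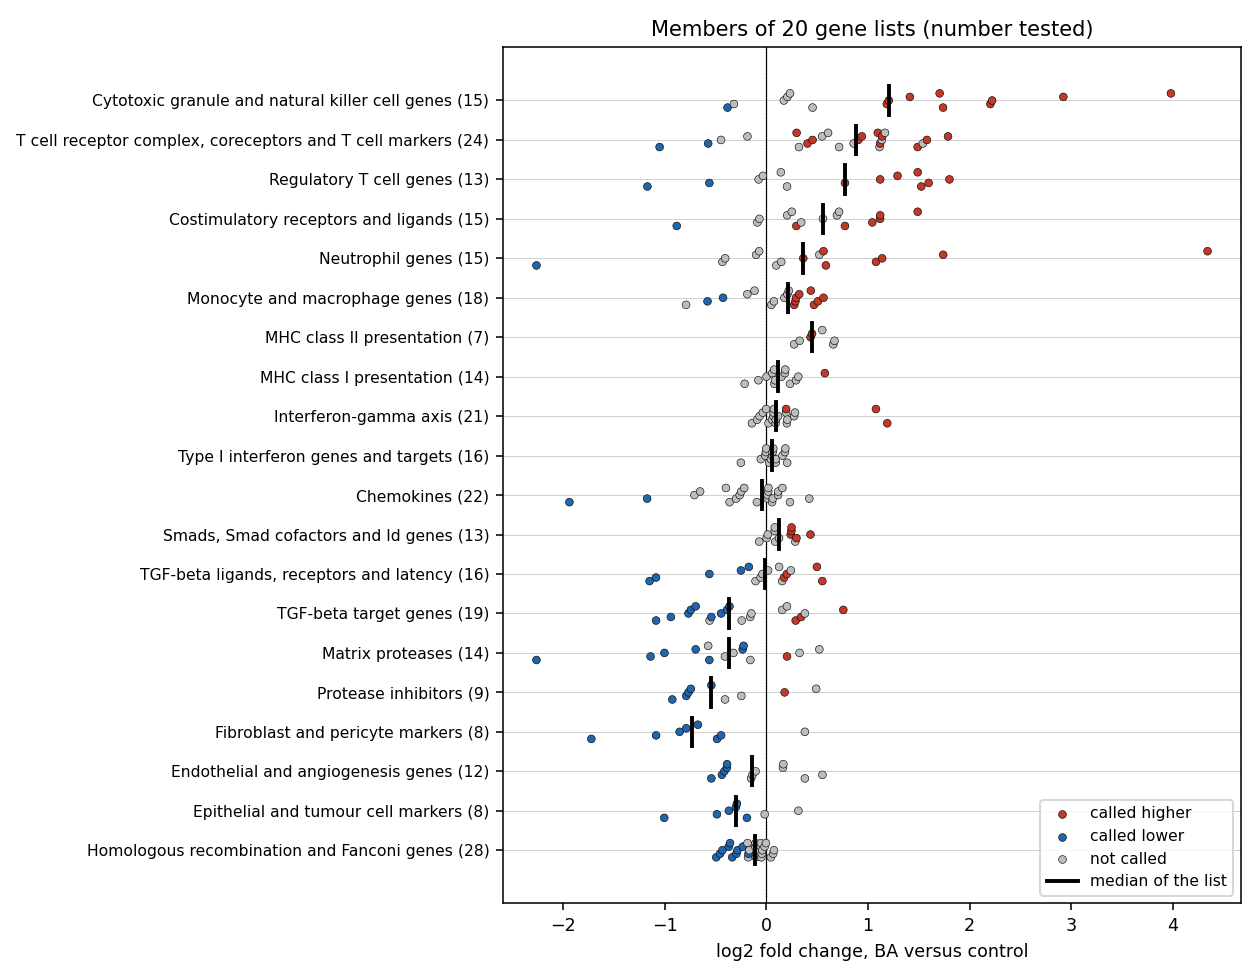
Each point is a tested gene of 1 of 20 lists, placed by its log2 fold change of BA against control; red points were called higher, blue points lower and grey points neither, and the black bar is the list's median. Medians run from 1.21 for cytotoxic granule and natural killer cell genes to -0.73 for fibroblast and pericyte markers, beside a median of 0.0019 over all genes.

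Markers of muscle, the tissue around these thigh tumours, and of plasma cells varied from mouse to mouse. Mb, the myoglobin of muscle fibres, ranged 245 to 4777 CPM (median 399) in control and 329.6 to 3635 CPM (median 1456) in BA tumours (log2 fold change 0.88, SE 0.54, edgeR adjusted p = 0.243). Control mouse 6 held the highest Mb value, and without it Mb was called higher by 1.94 (adjusted p = 0.00192). Myod1, the muscle lineage factor, stood at 0.26 (edgeR adjusted p = 0.774). Igkc, the immunoglobulin κ constant region of plasma cells, ranged 6.48 to 246 CPM (median 22.4) in control and 5.05 to 690.1 CPM (median 18.7) in BA tumours (log2 fold change 1.33, SE 0.98, edgeR adjusted p = 0.334). The part of muscle or plasma cell RNA in the differences above was not tested.

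The 2 panels gave a technical repeat, since 51 genes were tested on each from the same RNA. On these 14 were called on both panels, all 14 in the same direction, 28 on neither and 9 on one panel only (5 on panel 1 and 4 on panel 2), with p adjusted over the genes of both panels. The largest rise seen on both was that of Fasl, and the steepest falls were those of Il10 and Tgfb2. Calls that differed included Itgav and Itgb1, integrin chains that together bind fibronectin, called lower by 0.17 and 0.18 on panel 1 and standing at -0.10 and -0.10 on panel 2. The Itgav call also ended without any 1 of 7 mice (adjusted p = 0.0518 to 0.0877). They also included Il13ra2, a decoy receptor for IL-13, at -1.06 and -0.73 (adjusted p = 0.0144 and 0.287), and Rfx1, a regulatory factor marked as a reference gene, at 0.22 and 0.26 (adjusted p = 0.0508 and 0.00837). Panel 2 gave a log2 fold change higher than panel 1 by a median of 0.09. The 9 reference genes had a median log2 fold change of 0.0026 on panel 1 and 0.08 on panel 2.

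The same drug difference was measured in irradiated tumours, as BA+RT against RT, with no mouse in common. There 112 of 1038 genes were called (10.8%), 38 higher (3.66%) and 74 lower (7.13%). Of the 130 genes higher with BA alone 12 were also called higher after radiation, which is 9.23% of the first set and 31.6% of the second. Another 4 of the 130 were called lower after radiation. Of the 150 lower genes 36 were also called lower, 24% and 48.6% of the respective sets, and 2 were called higher after radiation. Prf1 was called higher in both settings, by 3.98 without and 2.37 with radiation (edgeR adjusted p = 0.00185 with radiation), as were Gzmb by 1.89 and Ctsg by 2.04 (adjusted p = 0.00775 and 0.0358). Called lower in both were Mmp9 (log2 fold changes -2.26 and -1.61), Cspg4 (-1.72 and -1.28) and Cd40 (-0.88 and -0.90; adjusted p = 1.06e-08, 4.18e-05 and 1.88e-08 with radiation).

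A test of the difference itself, the interaction, was called for 86 genes (8.29%), of which 65 were among the 280. All 38 interaction calls among the higher genes and all 27 among the lower genes had the smaller or opposite change in irradiated tumours, in genes selected for their change without radiation. Foxp3 changed by 1.60 without and 0.21 with radiation (interaction -1.38, edgeR adjusted p = 0.0125). Tnfrsf18 went from 1.12 to -0.03 (interaction -1.15, adjusted p = 0.00528). Msr1 was higher with BA alone by 0.44 and stood at -0.40 after radiation (interaction -0.83, adjusted p = 0.000138). In the other direction Itm2a fell with BA alone and stood at 0.08 after radiation (interaction 1.13, adjusted p = 0.000789). For Prf1, Gzmb, Ctsg and Mmp9 the interaction did not pass the test (adjusted p = 0.16, 0.361, 0.136 and 0.0695).

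**Figure D5:**
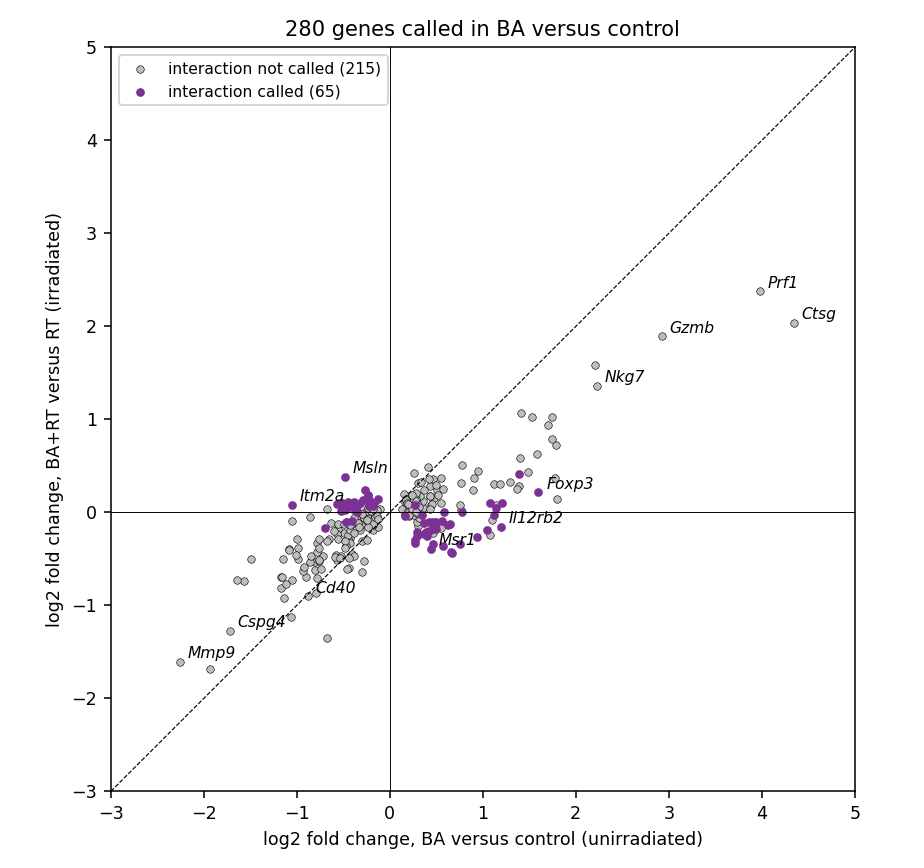
Each point is 1 of the 280 genes called in BA against control, with that log2 fold change on the horizontal axis and the log2 fold change of BA+RT against RT on the vertical axis; the dashed line marks equal changes and purple points are the 65 genes whose interaction was called. Prf1, Ctsg, Gzmb, Mmp9 and Cspg4 keep their direction, while many purple points lie near 0 on the vertical axis.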

How the data were processed

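Total RNA of each tumour was read with a targeted mouse immuno-oncology panel and a custom panel (TGF-β targets, DNA damage, DNA repair, fibrosis), per the labels. The deposited counts are whole numbers for each amplicon, without normalization. They also deposited log2-scale values (the regularized log of DESeq2, per the submitters' processing notes and file name), used for 1 alternative. Whether reads or molecular barcodes were counted, and the aligner, are not stated in the labels or headers used here. The file headers give GRCh38, but positions fell in the named mouse genes of GRCm38 for all but 1 gene. Genomic DNA control rows, with 7 counts on panel 1 and 12 on panel 2, were left out.

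Each panel was scaled (TMM) and fitted on its own with all 4 groups in edgeR 4.0.16 (R 4.3.3), with its default expression filter and robust quasi-likelihood F test, two-sided. A gene on both panels was taken from the panel with its larger total. P values were adjusted by Benjamini-Hochberg over 1038 genes and called below 0.05. SE is the absolute log2 fold change over the square root of F. No pairing was used, since each group has its own mouse numbers. Lists are described by counts and medians, without a test. Some genes are in several lists, Ctla4, Ccr7, Tnfrsf4 and Thbs1 among them. The comparison, the 41 gene lists and the tests were chosen with earlier results of these data known. Named genes were the drug targets and receptors, the 12 higher and 12 lower genes with the smallest p, in each list up to 4 called genes and 2 uncalled ones with the largest change, and genes whose calls differed between panels or ended without 1 mouse. Of the 193 genes this names, 117 are described and the others are not reported here. Alternatives were DESeq2 1.42.0, limma 3.58.1 on the log2 values, other scalings, no filter, these 2 groups alone, the other panel, and leaving out each mouse.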

Additional observations from a re-analysis of the deposited data

Results flagged for a closer look

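A mouse far from the other 8 of its group was found in 15 of 234 group comparisons of the genes described, by Dixon's test on log2 CPM, and chance alone flags about 1 in 20. By this test control mouse 8 stood apart as the highest of its group for 7 genes. Its levels were 912 CPM for Cd274, 166 CPM for Pdcd1lg2, 160 CPM for Klrk1, 30.0 CPM for Zbtb32, 688 CPM for Ciita, 3354 CPM for H2-Ab1 and 4065 CPM for Psmb9. Control mouse 6 was the highest for Mb at 4777 CPM and the lowest for Acp5 at 741 CPM. BA mouse 13 was the highest for S100a8 at 5919 CPM and the lowest for Id2 at 3009 CPM. Other BA mice stood lowest for single genes, with 26.5 CPM of Calr in mouse 10, 8.14 CPM of Il12rb2 in mouse 12, 326 CPM of Cd34 in mouse 16 and 73.3 CPM of Ifit3 in mouse 17.

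For 27 of the genes described, the response to BA was unequal with and without radiation by edgeR's interaction test at an adjusted p below 0.05. The difference is given as the log2 fold change with radiation minus that without. It was negative at -1.38 for Foxp3, -1.34 for Il12rb2, -1.20 for Ccr7, -1.15 for Tnfrsf18, -0.98 for Zbtb32 and -0.77 for Tnfrsf4. It was also negative at -0.98 for Fpr2, -0.93 for Calr, -0.83 for Msr1, -0.77 for Itgb2, -0.65 for Itgam, -0.64 for Arg1, -0.58 for Selplg, -0.56 for Ifi30 and -0.52 for Pycard. Myc gave -0.37 and Rev1 -0.19. It was positive, for genes lower with BA alone, at 1.13 for Itm2a, 0.86 for Msln, 0.66 for Egr2, 0.55 for Pttg1, 0.53 for Plau and 0.51 for Rbbp8. Lig1 gave 0.43, Brca2 0.40, Mki67 0.36 and Psmd13 0.28.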

How the results depend on the processing

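The number of genes called with BA was 280 with 255 to 309 under the 8 alternatives that kept all mice of both groups, and 242 to 349 when single mice were left out. Higher calls ranged from 110 to 168 and lower calls from 127 to 181 over the left-out mice. Of the 280 genes 240 to 276 were called in the same direction without any 1 mouse, 280 in DESeq2 and 241 with reference gene scaling. That scaling turned the split of 130 higher and 150 lower into 99 and 183. For BA+RT against RT it gave 19 higher and 96 lower in place of 38 and 74, and DESeq2 gave 63 and 83. Library totals alone gave 137 higher and 137 lower with BA. For the interaction DESeq2 gave 58 and 53, reference gene scaling 22 and 39, and the edgeR test with TMM 35 and 51. Of the 117 tested genes described, 20 lost or gained a call under an alternative that kept all mice. When a single mouse was left out 29 changed in call or sign, Tgfb3 in sign alone. Tgfb3, near 0 and not called, changed sign without control mouse 3 (-0.02), control mouse 6 (-0.05), BA mouse 11 (-0.02) or BA mouse 14 (-0.03), and ranged from -0.046 to 0.054 over the left-out mice. The cause was not tested. No paired analysis was possible because no mouse number is shared between groups.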
